A study of Mus musculus with 18 samples.

Results

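The genes described here encode the machinery of regulated exocytosis, by which a secretory cell fuses stored vesicles with its plasma membrane. They are 37 named genes of 27670 on the array, chosen by name as SNARE proteins, calcium sensors, complexins and SNARE recycling factors, Rab3 and Rab27 GTPases with their effectors, priming factors and vesicle membrane proteins. All 37 had probes, 85 in total, and each tested gene was represented by its brightest kept probe. Of the 37 genes, 28 passed the requirement that the tissue signal lie well above background on at least 3 arrays and were tested among 14664 genes.

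In regulated exocytosis, Rab proteins and their effectors bring a vesicle to the membrane, priming factors make it ready, and SNARE proteins of vesicle and membrane then zip into a complex that drives fusion when calcium binds a synaptotagmin. Complexins hold and promote that complex, and the ATPase encoded by Nsf takes it apart for reuse. In the thyroid, the parafollicular C cells are endocrine cells that release calcitonin from dense-core granules in this way, whereas follicular thyrocytes secrete thyroid hormone without such granules.

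The study measured 18 captured areas of thyroid from male C57BL/6 mice, either normal glands or glands after partial thyroidectomy, which the labels call dissected. From normal glands, 5 central and 3 peripheral areas of the lobe were cut out by laser, and from dissected glands 5 of each, which makes 4 groups. Tissue RNA was amplified, labelled with Cy5 and hybridised beside a common Cy3 reference, a commercial mixed RNA of Swiss Webster mouse organs that includes brain, so every value is a log2 ratio of tissue over that mixture. The labels give no age, no time after surgery and no animal for an area, so areas may share a mouse and all p-values below, which measure the spread between areas, may be too small. Because these are bulk samples, fewer cells of a type and less RNA per cell cannot be told apart.

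Between 25.4% and 44.6% of probes lay well above background on an array. The lowest were normal peripheral 1, dissected central 1 and 2 and dissected peripheral 1, at 25.4% to 30.3%, and calls that changed without these 4 arrays are named beside the gene. Of 12 thyrocyte markers 10 were tested and none was called in any comparison. Tg, for thyroglobulin, was above background on all 18 arrays, and Slc5a5 and Foxe1 on none. Of 18 C cell markers 17 were tested, and 9 in the normal and 11 in the dissected gland were called higher in the central area. The mean log2 ratio of the C cell markers ran from 0.59 to 1.32 on normal central, -1.48 to -0.92 on normal peripheral, -1.01 to 1.02 on dissected central and -2.05 to -1.69 on dissected peripheral arrays. Dissected central 2 had the lowest value of its group. Its mean log2 ratio over the 3 tested of 5 skeletal muscle markers was the highest of all arrays, 1.42 against -1.7 to 0.65. The part of muscle in its values was not tested. Of 14 neuron and nerve fibre markers 9, Th, Stmn2, Gap43 and Prph among them, were above background on no array and 4 were tested. Of 4 parathyroid markers 2 were tested, while Casr was above background on no array and Gcm2 on 1. The mean log2 ratio of the 2 tested was 1.94 on normal central 3, against -2.98 to -0.71 on the other arrays.

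The sequences behind the main results are shown first. Snap25, the gene with the smallest p-values of the group, had 3 probes. Its brightest probe and a second one share a stretch of 40 bases and so are not separate measurements. The middle 30 bases of that stretch are printed below. The remaining probe, 60 bases long and mapped by the array design to chr2:136514748-136514796 (mm7, plus strand), lies upstream of the second, is printed to show the part of the transcript that gave no signal, and was above background on no array. That span is shorter than the probe, and which exon or untranslated region the probes hit was not determined.
Snap25, shared by the responding probes: tgaagatcttctaagtctggctcttgtgat
Snap25, silent probe: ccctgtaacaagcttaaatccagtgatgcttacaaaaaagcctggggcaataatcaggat

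Of the 5 genes that differed among the 4 groups, Rab3a, Rab3b and Cplx2 had promoters in the RefSeq table (GRCm38.p6), which matched 27 of the 37 genes. Each promoter covers 250 bases before to 50 after a transcription start, and all start sites are on the plus strand. Capitals mark, on either strand, TGACG, the core of the cAMP response element, and GGGCGG, the core of a GC box. These occur in 20.8% and 35.7% of all 32851 promoters of this length, so a match is common and is a description only.
Rab3a, chr8:70754453-70754752: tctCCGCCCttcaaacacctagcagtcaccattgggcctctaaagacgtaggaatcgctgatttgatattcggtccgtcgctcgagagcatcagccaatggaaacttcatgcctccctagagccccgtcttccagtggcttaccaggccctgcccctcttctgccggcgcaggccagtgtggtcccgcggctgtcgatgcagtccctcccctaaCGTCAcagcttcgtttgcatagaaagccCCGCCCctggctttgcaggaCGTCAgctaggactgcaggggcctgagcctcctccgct
Rab3b, chr4:108878820-108879119: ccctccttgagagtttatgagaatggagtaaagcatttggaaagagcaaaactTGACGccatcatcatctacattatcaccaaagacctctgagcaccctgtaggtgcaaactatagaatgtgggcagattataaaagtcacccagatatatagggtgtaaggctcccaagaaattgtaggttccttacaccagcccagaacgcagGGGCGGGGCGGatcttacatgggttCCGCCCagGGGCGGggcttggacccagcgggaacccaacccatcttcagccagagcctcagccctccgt
Cplx2, chr13:54302306-54302605: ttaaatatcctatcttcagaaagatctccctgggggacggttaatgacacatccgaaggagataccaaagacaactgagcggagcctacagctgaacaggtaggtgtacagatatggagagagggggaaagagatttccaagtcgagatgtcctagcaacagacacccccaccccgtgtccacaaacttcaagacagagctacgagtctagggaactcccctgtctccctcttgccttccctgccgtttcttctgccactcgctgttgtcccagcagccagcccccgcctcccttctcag
The first of 2 listed Rab3a starts is printed, with 2 matches to TGACG and 2 to GGGCGG. The Rab3b promoter held 1 and 4, of which a pair of GGGCGG matches overlap, and the Cplx2 promoter held none. TTCAGCACC, the left part of the element bound by the neuronal repressor REST, occurred in the promoters of Syn1 and Unc13a and in 0.371% of all promoters.

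Across the whole group, a single gene was called in the normal gland and 2 in the dissected gland, all higher in the central area. In the normal gland, 0.28% of all tested genes were called between central and peripheral areas, and the 1 of 28 exocytosis genes was Snap25. In the dissected gland, 0.586% of all genes were called, and the 2 of 28 exocytosis genes were Snap25 and Syt13. The moderated F test among the 4 groups called 5 of 28, Snap25, Syt13, Cplx2, Rab3a and Rab3b, against 1.06% of all genes. The median central minus peripheral difference of the 28 was 0.18 in the normal and 0.19 in the dissected gland on the log2 scale, against 0.01 and -0.00222 for all genes, and 19 of 28 lay above 0 in each state. These counts and medians are descriptive, since 4 of the 28, Cadps, Rims2, Syt1 and Syt4, passed the detection requirement through central arrays alone. The probes of Napb and Unc13a were also above background on fewer than 3 peripheral arrays, so they passed with the help of central arrays.

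**Figure D1:**
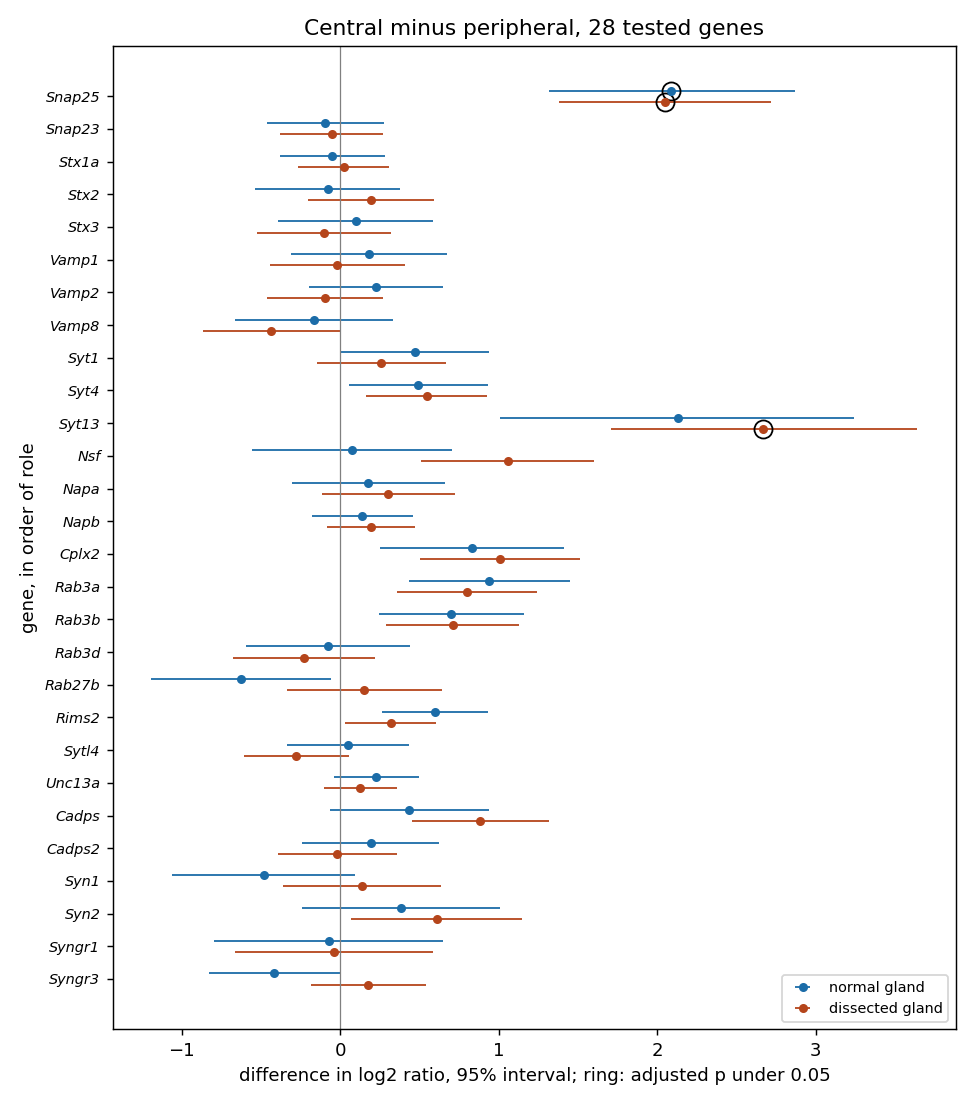
Central minus peripheral difference in log2 ratio (x axis) for the 28 tested genes (y axis), in the normal (blue) and dissected (red) gland, with 95% intervals from the limma fit. Rings mark an adjusted p under 0.05, reached by Snap25 in both states and Syt13 in the dissected gland, and most other genes lie near 0, with Rims2 and Unc13a above background on no dissected array.

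Of the SNAREs of the plasma membrane, Snap25 was higher in the central than in the peripheral area of both glands. The other 4 lay near 0. Snap25 encodes the membrane SNARE of neurons and neuroendocrine cells. Its log2 ratios were 0.40, 0.60, 0.76, 0.99 and 0.59 on normal central arrays 1 to 5 and -0.59, -1.88 and -1.81 on normal peripheral arrays 1 to 3. On dissected central arrays 1 to 5 they were -0.40, -1.12, 0.54, -0.03 and 0.62, and on dissected peripheral arrays 1 to 5 they were -1.45, -2.24, -2.39, -1.90 and -2.65. Every central array lay above every peripheral array of the same state. Snap25 was 4.26-fold higher in the normal central area (log2 2.09, SE 0.37, 95% interval 1.32 to 2.87, limma adjusted p = 0.0245). In the dissected gland it was 4.13-fold higher (log2 2.05, SE 0.32, 95% interval 1.38 to 2.72, limma adjusted p = 0.00393).

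The Cy5 (tissue) intensity of Snap25 was 597 to 1628 on normal central, 86 to 137 on normal peripheral, 103 to 929 on dissected central and 99 to 156 on dissected peripheral arrays. Its Cy3 (reference) intensity overlapped between all groups, at 225 to 617. It was above background on 5 of 5 normal central, 2 of 3 normal peripheral, 4 of 5 dissected central and 1 of 5 dissected peripheral arrays, so the peripheral values are close to the floor of the measurement. The overlapping second Snap25 probe gave differences of 1.95 and 1.80. Central exceeded peripheral on all 3 slides that held both areas of the normal gland, by 0.98 to 2.79, and on all 5 slides of the dissected gland, by 1.05 to 3.27. On scan day 1 and scan day 2 alone, which hold fewer arrays, the differences were 2.68 and 1.76 in the normal and 2.40 and 1.81 in the dissected gland, none called. The normal call ended with slide as a block (log2 2.03, limma adjusted p = 0.0671) and without the filter on dim probes (2.09, limma adjusted p = 0.0757). It also ended on leaving out normal central 1, 2, 3 or 4 or normal peripheral 2 or 3, with limma adjusted p of 0.0547 to 0.155 and log2 differences of 1.86 to 2.16, whereas the dissected call held without any single array. Without the 4 weak arrays Snap25 differed by 2.51 (limma adjusted p = 6.42e-05) and 2.67 (limma adjusted p = 7.98e-06). With processed signals of the scanner software the differences were 4.06 and 3.76, and those from the authors' deposited table of ratios were 4.12 and 3.78.

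The other plasma membrane SNAREs did not pass the test. Snap23, the relative of Snap25 found in most cells, was above background on all 18 arrays and differed by -0.09 (limma adjusted p = 0.928) and -0.05 (limma adjusted p = 0.975). The 95% intervals of these differences ran from -0.46 to 0.28 and from -0.38 to 0.27. Among the syntaxins, partners of these proteins in the membrane, Stx1a differed by -0.05 and 0.02 and Stx2 by -0.08 and 0.19. Stx3 differed by 0.10 and -0.10 on its brightest probe, which lies antisense to the gene. Its 2 other kept probes, both sense, gave -0.11 and 0.25, and -0.05 and 0.09, with signs opposite to the antisense probe.

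**Figure D2:**
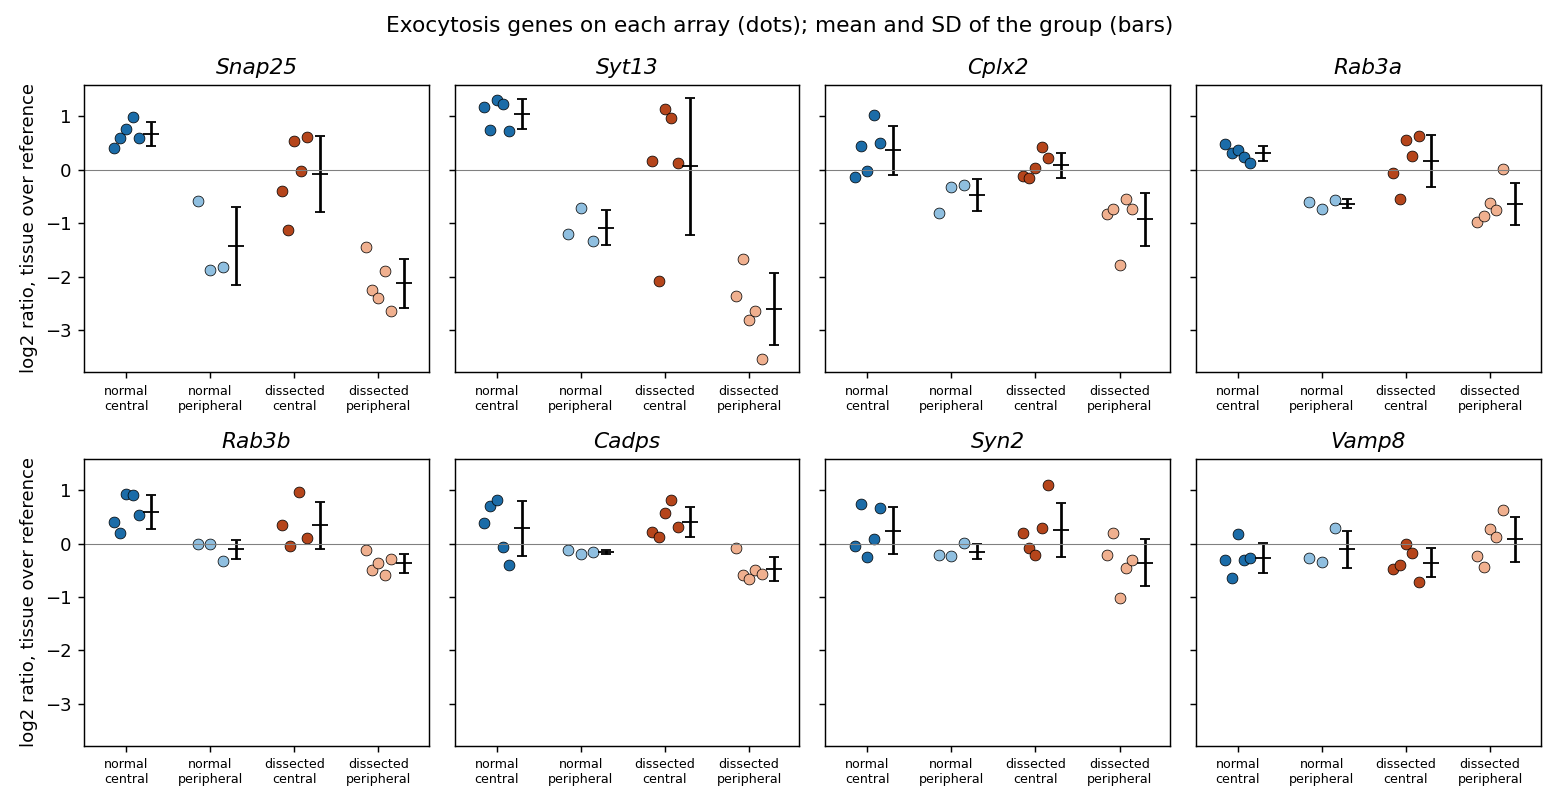
Log2 ratio of tissue over reference (y axis) of 8 genes on each array (dots), by group (x axis), with the mean and SD of the group (bars). Snap25 and Syt13 span the widest range, while Vamp8 and Syn2 overlap between all groups.

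No vesicle SNARE passed the test. Vamp8, a vesicle SNARE of exocrine and other non-neuronal cells, had log2 ratios of -0.30, -0.64, 0.17, -0.31 and -0.28 on normal central and -0.27, -0.35 and 0.29 on normal peripheral arrays. The dissected central arrays gave -0.48, -0.41, -0.01, -0.17 and -0.72, and on dissected peripheral arrays -0.23, -0.43, 0.28, 0.13 and 0.63. The groups overlapped in both states. Its differences were -0.16 (SE 0.24, limma adjusted p = 0.895) and -0.43 (SE 0.21, limma adjusted p = 0.672), and a second kept Vamp8 probe gave 0.008 and -0.0998. Vamp1, a synaptobrevin of neurons and muscle, differed by 0.18 and -0.02, and Vamp2, the main synaptobrevin of neurons, by 0.23 and -0.10 on its brightest probe but -0.11 and -0.17 on another. Vamp3, found in most cells, was above background on 2 arrays and not tested.

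In the group of calcium sensors, Syt13 was called higher in the central than in the peripheral area of the dissected gland. It encodes an atypical synaptotagmin that is thought to act without binding calcium. Its log2 ratios were 1.18, 0.74, 1.30, 1.24 and 0.73 on normal central and -1.21, -0.71 and -1.33 on normal peripheral arrays. Values on dissected central arrays were 0.16, -2.08, 1.13, 0.97 and 0.13, and on dissected peripheral arrays -2.37, -1.67, -2.81, -2.65 and -3.54. The normal areas did not overlap. In the dissected gland, dissected central 2, one of the weak arrays, lay among the peripheral arrays. That array was the lowest of its group in C cell markers and the highest in skeletal muscle markers. Syt13 was 6.37-fold higher in the dissected central area (log2 2.67, SE 0.46, 95% interval 1.71 to 3.64, limma adjusted p = 0.00838). In the normal gland the difference was 2.13 (SE 0.53, 95% interval 1.01 to 3.24, limma adjusted p = 0.132), and the difference between the states was not called (log2 0.55, limma adjusted p = 0.893).

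Central exceeded peripheral for Syt13 on all 3 slides of the normal gland, by 1.46 to 2.58, and on 4 of 5 slides of the dissected gland, at -0.41 to 3.94. In the dissected gland the difference was 3.78 on scan day 1 (limma adjusted p = 0.00617) and 1.93 on scan day 2 (limma adjusted p = 0.848). The dissected call of Syt13 held on leaving out any single array, with limma adjusted p of at most 0.0337. It was lost with processed signals (log2 3.49, limma adjusted p = 0.196), with the authors' deposited value table (3.51, limma adjusted p = 0.199), with Cy5 alone (2.34, limma adjusted p = 0.13) and with only the 2 groups fitted (2.67, limma adjusted p = 0.109). With only the normal groups fitted, the normal difference of Syt13 was called (2.13, limma adjusted p = 0.00372). Without dissected central 2 the normal difference of Syt13 was called (2.13, limma adjusted p = 0.00469), as it was without the 4 weak arrays (2.06, limma adjusted p = 0.0312), while the dissected difference was then 3.41 (limma adjusted p = 0.000125). The Cy5 intensity of Syt13 was 1546 to 3179 on normal central, 103 to 592 on normal peripheral, 97 to 2065 on dissected central and 95 to 365 on dissected peripheral arrays. A second Syt13 probe was above background on no array.

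Syt1 and Syt4, whose probes lay close to background, did not pass. Syt1 is the fast calcium sensor of synapses, above background on 2 normal central arrays, 1 dissected central array and no peripheral array. It differed by 0.47 and 0.26. Its central level was at least 0.991-fold (normal) and 0.859-fold (dissected) the floor of the peripheral arrays, so a higher central level is not shown. Syt4 was above background on 3 normal central, 2 dissected central and no peripheral arrays, and its central level was at least 1.04-fold (normal) and 1.08-fold (dissected) the floor of the peripheral arrays. All 5 normal central arrays lay above the 3 peripheral arrays for Syt4, though normal central 5 and normal peripheral 1 both round to -0.04. The floor is, per array, the higher of the lowest signal well above background and the probe's own. Syt7, a slower calcium sensor of endocrine cells, was above background on 2 arrays and Doc2b, a soluble calcium sensor, on none.

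**Figure D3:**
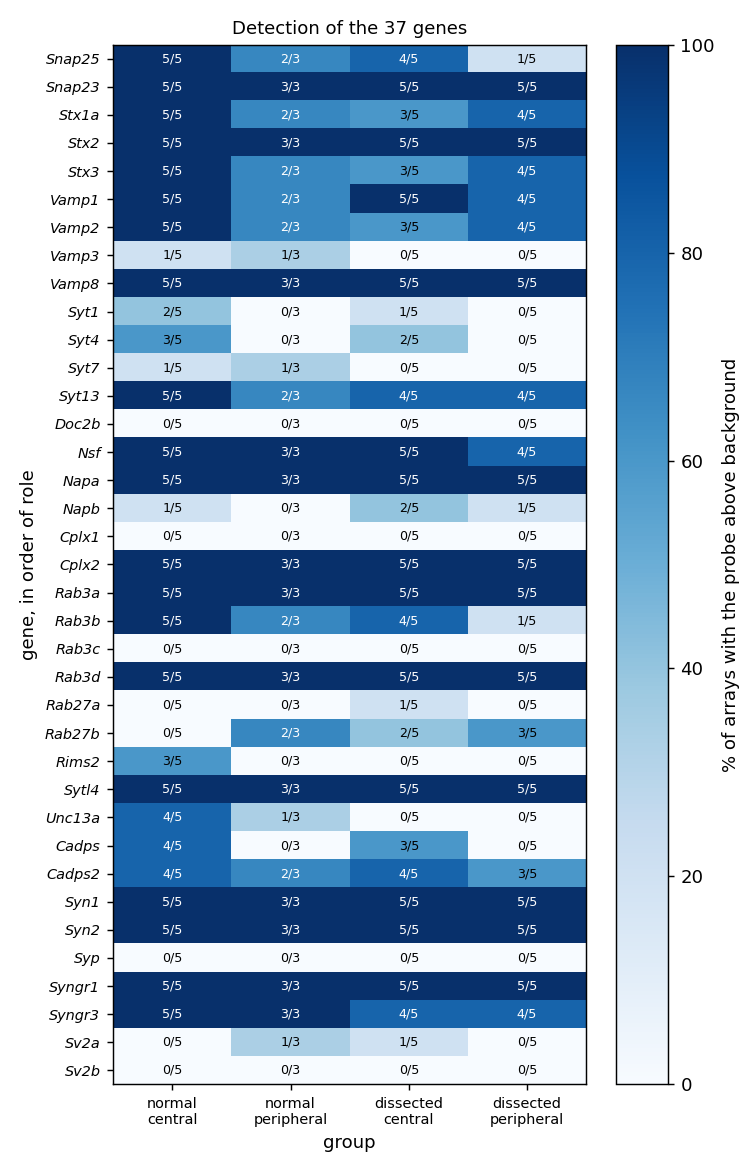
Number of arrays of each group (columns) on which the probe of each of the 37 genes (rows, in order of role) was well above background, with the shade giving the percentage. Of these genes, 11 were detected on every array, while Cadps, Rims2, Syt1 and Syt4 were detected on central arrays but on no peripheral array.

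Among the fusion regulators, Cplx2 differed among the groups in the F test. It encodes a complexin, which binds the assembled SNARE complex. The Cplx2 probe was bright on all arrays, with Cy5 of 7879 to 26847 on normal central, 1137 to 7284 on normal peripheral, 2255 to 16581 on dissected central and 1662 to 9764 on dissected peripheral arrays. Its log2 ratios were -0.13, 0.45, -0.03, 1.02 and 0.50 on normal central and -0.81, -0.32 and -0.28 on normal peripheral arrays. For dissected central arrays the ratios were -0.11, -0.16, 0.04, 0.42 and 0.22, and on dissected peripheral arrays -0.82, -0.74, -1.79, -0.54 and -0.74. Central arrays lay above peripheral arrays without overlap in both states. The F test gave a limma adjusted p of 0.0292. This call was lost without normal central 2 or 5 or dissected peripheral 1, 2 or 5, and without the 4 weak arrays. It was also lost with processed signals, Cy5 alone, the authors' table, no filter on dim probes and each scan day alone. The central minus peripheral differences were 0.83 (SE 0.28, limma adjusted p = 0.365) and 1.01 (SE 0.24, limma adjusted p = 0.0732), the latter called with slide as a block (limma adjusted p = 0.0155) and without normal central 4 (limma adjusted p = 0.0474). A second, far dimmer Cplx2 probe gave 0.16 and 0.25.

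Nsf, the ATPase that dismantles SNARE complexes, differed by 0.07 in the normal gland (limma adjusted p = 0.971) and by 1.06 in the dissected gland (SE 0.26, limma adjusted p = 0.0844), the latter called without normal central 5 and without dissected peripheral 3. Its group means were 0.27 ± 0.54 (SD, n = 5) in the normal central, 0.19 ± 0.24 (SD, n = 3) in the normal peripheral, 0.525 ± 0.29 (SD, n = 5) in the dissected central and -0.53 ± 0.51 (SD, n = 5) in the dissected peripheral area. The difference between states was 0.98 on the log2 scale (SE 0.40, limma adjusted p = 0.79). Napa, the adaptor that recruits Nsf, differed by 0.18 and 0.31 on one probe and by -0.04 and -0.07 on the other, both above background on all 18 arrays. Napb, its neuronal relative, differed by 0.14 and 0.19. Its probe was above background on no normal peripheral array, and the normal central level was at least 0.96-fold the peripheral floor. Cplx1 was above background on no array.

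Rab3a and Rab3b, GTPases on the surface of secretory vesicles, both differed among the groups in the F test. Rab3a had log2 ratios of 0.49, 0.32, 0.37, 0.23 and 0.12 on normal central and -0.60, -0.73 and -0.57 on normal peripheral arrays. Dissected central arrays had ratios of -0.06, -0.55, 0.55, 0.25 and 0.63, and on dissected peripheral arrays -0.97, -0.86, -0.62, -0.76 and 0.02. The normal areas did not overlap, while dissected central 1 and 2 and dissected peripheral 5 brought the dissected areas into overlap. Rab3a differed by 0.94 (SE 0.24, limma adjusted p = 0.149) and 0.80 (SE 0.21, limma adjusted p = 0.112), with central higher on all 3 and all 5 slides. Its F test gave a limma adjusted p of 0.0379, kept in 4 of 18 fits that each left out 1 array. With only the normal groups fitted the normal difference of Rab3a was called (limma adjusted p = 0.0281). Without dissected central 2 both differences of Rab3a were called (0.94, limma adjusted p = 0.0486, and 0.98, limma adjusted p = 0.0109). The dissected one was also called without dissected peripheral 5 (0.97, limma adjusted p = 0.0391) and without the 4 weak arrays (1.03, limma adjusted p = 0.0157). With Cy5 alone it was called too (0.983, limma adjusted p = 0.0477).

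Rab3b had log2 ratios of 0.41, 0.19, 0.92, 0.90 and 0.54 on normal central and -0.01, 0.00 and -0.32 on normal peripheral arrays. On dissected central arrays 1 to 4 they were 0.34, -0.05, 0.96 and 0.11, the spot on array 5 being left out as non-uniform, and on dissected peripheral arrays -0.12, -0.49, -0.37, -0.59 and -0.29. Central and peripheral arrays did not overlap in either state. Within slides, central was higher on 3 of 3 and 4 of 4. The differences were 0.70 (SE 0.22, limma adjusted p = 0.307) and 0.71 (SE 0.20, limma adjusted p = 0.169). With the authors' deposited table the dissected one was called (1.89, limma adjusted p = 0.0497). The F test gave a limma adjusted p of 0.0482. That call was kept in 4 of 18 fits that each left out 1 array and lost without the 4 weak arrays. The probe lay near background, on 1 of 5 dissected peripheral arrays above it.

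The rest of the Rab group did not pass. Rims2, a scaffold that binds Rab3, was above background on 3 normal central arrays and no other, and differed in the normal gland by 0.60 (limma adjusted p = 0.163), a level at least 1.1-fold above the peripheral floor. This difference was called with the authors' deposited table of ratios. Rims2 was above background in neither dissected area, so no size is given. Rab3d, a granule Rab of exocrine cells, was above background on all arrays and differed by -0.07 and -0.23 on its brightest probe, and by -0.33 and 0.15 on the other. Sytl4, or granuphilin, which tethers granules through Rab27, differed by 0.05 and -0.28. Rab27b, a GTPase of secretory granules, was the one gene whose brightest probe had every normal central array below every normal peripheral array. It was above background on no normal central array and on 2 of 3 normal peripheral arrays on its brightest probe, with a peripheral level at least 1.44-fold higher there and a difference of -0.62 (limma adjusted p = 0.523). Its other kept probe had the reverse pattern, above background on 2 normal central and 0 normal peripheral arrays, with a difference of 0.013, so the direction of Rab27b is not settled. Rab27a was above background on 1 array and Rab3c on none.

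Counting genes whose arrays did not overlap, 7 of 28 were higher in the normal central area, namely Snap25, Syt13, Syt4, Rab3a, Rab3b, Rims2 and Cplx2, against 3.57% of all tested genes. Rab27b was the 1 lower, against 1.28%. In the dissected gland 4 of 28 were higher, namely Snap25, Rab3b, Cadps and Cplx2, against 1.21%, and none was lower, against 0.464%. These counts are no support for a direction, since Syt4 and Rims2 in the normal and Cadps in the dissected gland passed the detection requirement through central arrays alone.

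Among the priming factors, Cadps had its largest difference in the dissected gland and was not called. It encodes CAPS1, a priming factor of dense-core granules. Its log2 ratios were 0.38, 0.70, 0.81, -0.07 and -0.41 on normal central and -0.13, -0.19 and -0.16 on normal peripheral arrays. After dissection, central arrays gave 0.22, 0.12, 0.57, 0.82 and 0.30, and on dissected peripheral arrays -0.09, -0.58, -0.67, -0.49 and -0.57. The dissected areas did not overlap, while the normal areas did. Cadps was above background on 4 normal central and 3 dissected central arrays and on no peripheral array, so that its central level was at least 1.27-fold and 1.45-fold that of the peripheral floor. The fitted differences were 0.44 (limma adjusted p = 0.641) and 0.89 (SE 0.21, limma adjusted p = 0.0683). The dissected difference of Cadps was called without the 4 weak arrays (1.14, limma adjusted p = 0.0431), without normal central 5 (limma adjusted p = 0.0254) and without dissected central 2 (0.96, limma adjusted p = 0.0407). It was also called with processed signals (3.20, limma adjusted p = 0.0263) and with the authors' deposited table (3.22, limma adjusted p = 0.026). Cadps2, its relative, differed by 0.19 and -0.02. Unc13a, Munc13-1 of synapses, differed in the normal gland by 0.23 on its brightest probe and by -0.22 on the other, each above background on 5 arrays. That brightest probe was above background on no dissected array.

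Proteins of the vesicle membrane and the synapsins did not pass. Syn2, which tethers vesicles to the cytoskeleton, had log2 ratios of -0.05, 0.74, -0.25, 0.08 and 0.67 on normal central and -0.22, -0.24 and 0.01 on normal peripheral arrays. Its ratios on dissected central arrays were 0.19, -0.08, -0.22, 0.29 and 1.09, and on dissected peripheral arrays -0.22, 0.20, -1.01, -0.45 and -0.31. The groups overlapped in both states, with differences of 0.39 (SE 0.30, limma adjusted p = 0.756) and 0.61 (SE 0.26, limma adjusted p = 0.599). Syn1 differed by -0.48 and 0.14 on its brightest probe and by 0.31 and 0.30 on a second kept sense probe. On the brightest probe the ratio of Syn1 was well below 0 in every group, at means of -1.64 to -1.09, that is below the brain-containing reference. On the second probe, above background on 5 arrays, the group means were -0.191 to 0.174. The synaptogyrins are membrane proteins of small vesicles. Syngr1 differed by -0.07 and -0.04 and by -0.11 and 0.06 on its 2 kept probes, and Syngr3 by -0.41 and 0.18. Of the classical synaptic vesicle proteins, Syp and Sv2b were above background on no array and Sv2a on 2.

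Between dissected and normal glands, no exocytosis gene was called in either area, and 0% of all 14664 genes were. In the central area, 3 of 28 had a limma p under 0.05 before adjustment, all lower after dissection, against 5.24% of all genes. They were Snap25 (-0.75, limma adjusted p = 0.889), Syt13 (-0.98, limma adjusted p = 0.945) and Rims2 (-0.35, limma adjusted p = 0.869). The size for Syt13 depended on single arrays, with dissected central 2, a weak array, lowest at -2.08. Leaving out 1 array gave -1.25 to -0.444 for Syt13 there, and the difference was -0.224 on scan day 1 and -1.48 on scan day 2. In the peripheral area 3 of 28, again all lower, had such a p, against 8.35% of all genes. They were Syt13 (-1.52, limma adjusted p = 0.524), Nsf (-0.73, limma adjusted p = 0.574) and Syngr3 (-0.45, limma adjusted p = 0.583). In the central area none of the 28 had groups that did not overlap, against 0.43% (higher) and 0.573% (lower) of all genes. Every dissected peripheral array lay below every normal peripheral array for Syt13 and Syngr3, 2 of 28 against 2.05% of all genes, and no gene was higher without overlap, against 2.16%. The intervals were wide, that of Syt13 in the peripheral area reaching from -2.64 to -0.41. The difference between areas in the change after dissection was called for 0 of the 28 by limma, with 3, Nsf, Rab27b and Syngr3, at a p under 0.05 before adjustment, against 5.82% of all genes.

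**Figure D4:**
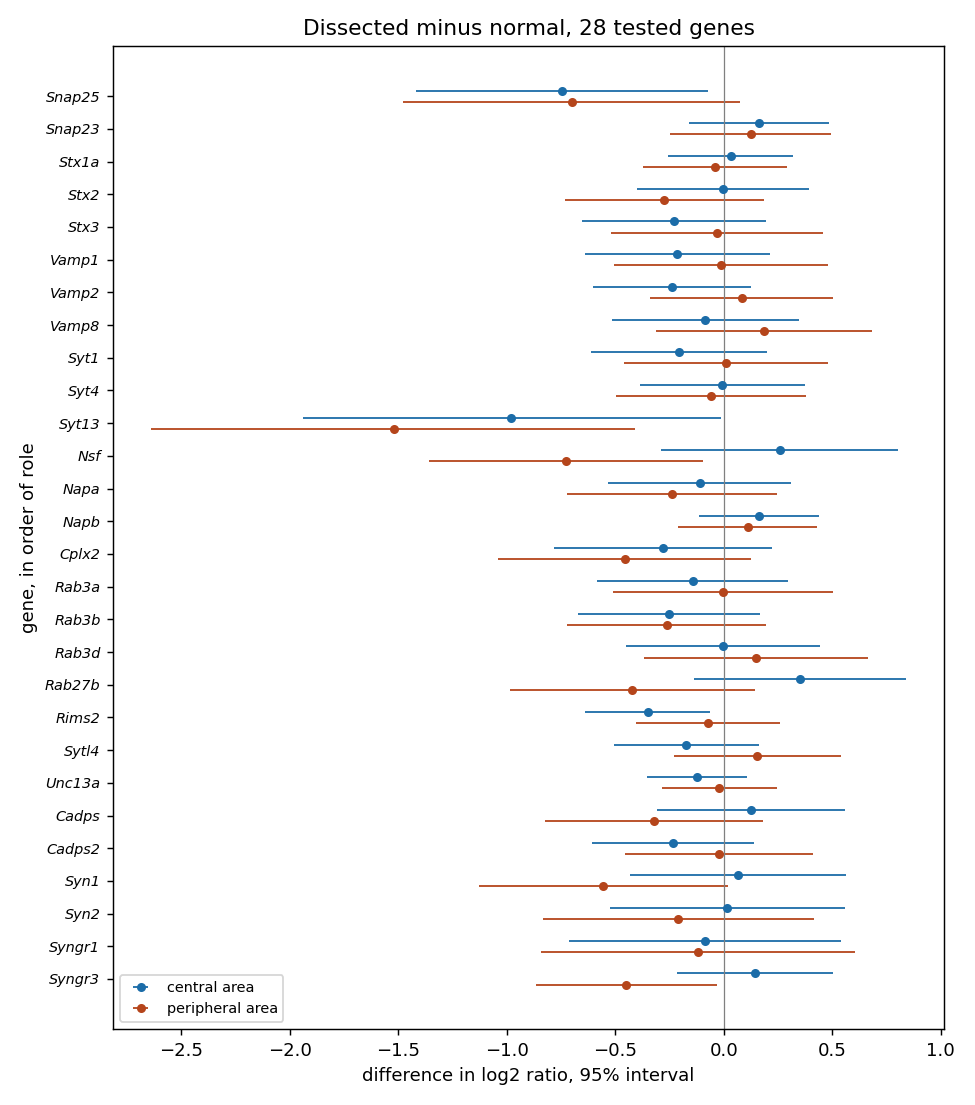
Dissected minus normal difference in log2 ratio (x axis) for the 28 tested genes (y axis), in the central (blue) and peripheral (red) area, with 95% intervals from the limma fit. No gene reached an adjusted p under 0.05, and Syt13 in the peripheral area has the largest difference, -1.52.

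Snap25 and Syt13 are given here beside the C cell markers, and no correlation was tested. The genes and the markers were chosen with earlier results of these data known, so shared differences between areas are a description only. Within groups the order could differ, as normal peripheral 2, at a C cell mean of -1.48, had the highest Syt13 of its group. On the arrays with a mean C cell ratio of 0.59 or more, namely all normal central arrays and dissected central 3, 4 and 5, Snap25 lay between -0.03 and 0.99 and Syt13 between 0.13 and 1.30. On dissected central 1, at a C cell mean of 0.04, Snap25 was -0.40 and Syt13 0.16, and on dissected central 2, at -1.01, they were -1.12 and -2.08. On the 8 peripheral arrays the C cell mean was at most -0.92, with Snap25 at most -0.59 and Syt13 at most -0.71. The spot of Calca, the calcitonin gene, was left out on dissected central 1 as non-uniform, and over the 16 markers measured on every array the mean there was also 0.04. After a further scaling between arrays, which the Cy5 values of single genes do not have, the summed Cy5 of the 17 C cell markers was 363650 to 532675 on normal central and 163650 to 204908 on normal peripheral arrays. It was 188292 to 523857 on the 4 dissected central arrays with a value for Calca and 78544 to 148149 on dissected peripheral arrays. Calca made up most of this sum. Before that scaling its Cy5 was 439642 to 634193 on normal central arrays, where Pcsk2, the next brightest marker, reached 64596. Whether the number of C cells captured takes part in the differences of Snap25, Syt13, Rab3a, Rab3b and Cplx2 was not tested.

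On that scale the 4 tested neuron markers had a summed Cy5 of 780 to 1348 on normal central, 389 to 599 on normal peripheral, 512 to 1366 on dissected central and 373 to 511 on dissected peripheral arrays. One of them, Elavl4, was called in the dissected gland (2.53, limma adjusted p = 0.00746). With 9 of the 14 markers above background on no array, the part of nerve fibres in the values above was not tested. Mast cells also release granules by regulated exocytosis. Of 9 mast cell markers 5 were tested, and their mean log2 ratio was -0.31 to 0.15 on normal central, -0.39 to -0.01 on normal peripheral, -0.23 to 0.85 on dissected central and -0.60 to -0.04 on dissected peripheral arrays. Their summed Cy5 was 637 to 840, 623 to 807, 647 to 1521 and 538 to 923 in the same order. One of the 5, the protease gene Mcpt4, was called between the dissected areas (1.75, limma adjusted p = 0.00986), while Tpsab1 and Mrgprb1 were above background on no array. The part of mast cells in the values of the dissected gland was not tested.

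**Figure D5:**
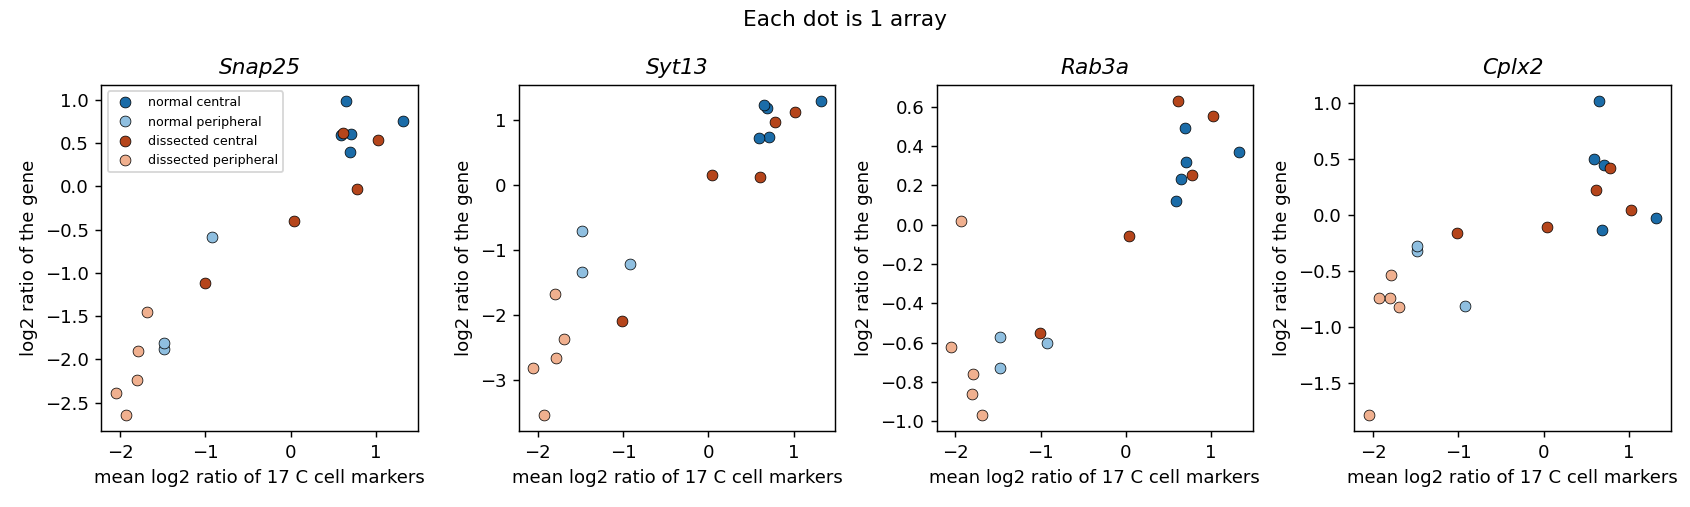
Log2 ratio of Snap25, Syt13, Rab3a and Cplx2 (y axes) against the mean log2 ratio of 17 C cell markers (x axis) on the same array, 1 dot per array, coloured by group. Dissected central 2, at a C cell mean of -1.01, lies among the dissected peripheral arrays for Syt13. For Snap25 it lies above all of them, at -1.12 against -2.65 to -1.45. For Rab3a, at -0.55, it lies below dissected peripheral 5 only.

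Of 115 other genes of secretion and vesicle traffic, 83 were tested and none was called between areas or states, while 15 (10 higher in the central area) had a limma p under 0.05 in the normal gland and 7 (6 higher) in the dissected gland, against 8.59% and 7.43% of all genes. Their median differences were 0.10 and 0.01 on the log2 scale. The F test called 1 of the 83, Rims3, a relative of Rims2, against 1.06% of all genes. Rims3 differed by 1.15 (SE 0.28, limma adjusted p = 0.12) and 0.94 (SE 0.24, limma adjusted p = 0.103) between central and peripheral areas.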

How the data were processed

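Per the file headers, the deposited spot and background intensity of both channels were written by Agilent's program Feature Extraction, version 9.5.1.1. The version in the submitters' processing notes is 8.5.1.1. Its processed intensity, per the file headers, was background-subtracted and dye-normalized, and its log10 ratio is the program's own. The authors also deposited a table of linear ratios, whose columns correlated with the scanner ratios at 0.995 to 1, at medians of 0.871 to 1.06. What was done to it is not given in the sources used here. The remaining deposited columns used, flags for background, saturation, uniformity and controls, are no measurements.

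Here, mean signals were corrected with normexp (offset 50) and loess within each array, spots marked non-uniform were left out, and spots of 1 probe were averaged. Probes well above background in Cy5 on at least 3 arrays were kept (19082), and the brightest stood for its gene, named through RefSeq. Stx2 is Epim in the files. One limma 3.58.1 fit (R 4.3.3) with 4 group means gave log2 differences, Benjamini-Hochberg adjusted over 14664 genes and called at 0.05, all two-sided. The fit was tested on simulated data. No dyes were swapped. Every array is 1 sample, on 5 slides and 2 scan days. Genes called in any comparison, and the gene of each role with the smallest F test p, are given on every array, and all kept probes where they disagree in sign. Alternatives were processed signals, Cy5 alone, the authors' table, the filter, and slide, scan day or replicate number as a block. Further ones were each scan day, the groups compared alone, each array left out and the 4 weak arrays left out. The last ones were Aquantile scaling between arrays, the probe of highest Cy5 and antisense probes left out. Genes and lists were chosen with earlier results of these data known.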

Additional observations from a re-analysis of the deposited data

Results flagged for a closer look

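In 84 sets of a gene and a group with 4 or 5 arrays, 5 held 1 array far from the others, with a gap to the nearest beyond the 95% critical value of Dixon's ratio. Chance gives about 1 in 20. Snap23 lay at -0.08 on dissected peripheral 5, against 0.36 to 0.46 on the other 4. Vamp2 lay at 0.71 on the same array, against -0.30 to -0.08. Syt4 lay at 0.08 on dissected peripheral 2, against -0.40 to -0.29. Syt1 lay at 0.72 on dissected central 5, against -0.27 to 0. Cplx2 lay at -1.79 on dissected peripheral 3, against -0.82 to -0.54.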

How the results depend on the processing

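Central exceeded peripheral for Snap25, Syt13, Cplx2, Rab3a and Rab3b in both states under all 33 alternatives run. Cadps kept this direction in the 32 that tested it, but it passed the detection requirement through central arrays alone. Many of the alternatives could not turn a difference. Leaving out an array of another group, fitting only the groups compared and scaling between arrays leave it unchanged. So do choices of filter or probe that keep the same probe for the gene. Of the other genes given on every array, Syn2 turned on scan day 1 in the normal gland. Vamp8 was lower in the central area in all but 1 fit. In the normal gland, 1 exocytosis gene and 41 of all genes were called, against 2 and 94 with the authors' table, 78 of all genes with processed signals, 0 and 8 without the filter, 0 and 18 with slide as a block, 0 and 1 on scan day 1, 0 and 0 on scan day 2, and 3 exocytosis genes with only the groups compared. In the dissected gland, 2 and 86 became 1 and 26 on scan day 1, 0 and 0 on scan day 2, 1 and 21 with only the groups compared, and 46 of all genes with Cy5 alone. After dissection, 1 of all genes was called in the peripheral area with processed signals and with the authors' table. The F test called 5 exocytosis genes in the main fit. With processed signals or the authors' table it called 3, Cadps, Rab3b and Snap25, so that Syt13, Cplx2 and Rab3a were lost. With Cy5 alone the 3 were Rab3a, Snap25 and Syt13, and with slide or scan day as a block Cplx2, Snap25 and Syt13. It called 2 without the filter, Snap25 and Syt13, 1 on scan day 1, Syt13, and 0 on scan day 2. The fit without the 4 weak arrays, chosen after seeing the data, called 2 and 95 in the normal gland, 4 and 193 in the dissected gland, and Snap25, Syt13 and Rab3a, 3 genes, by F test. Leaving out 1 array gave 0 to 3 exocytosis genes and 1 to 76 of all genes in the normal gland, 2 to 4 and 48 to 173 in the dissected gland, 0 to 1 of all genes after dissection in each area, and 2 to 5 by F test. The causes were not tested, except that scan day and array fits hold fewer arrays.

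The replicate numbers were not taken to pair the arrays, since not every pair correlated above 0.1 (-0.0709 to 0.231 over the 4 comparisons, with 2 of 6, 9 of 10, 5 of 10 and 3 of 6 arrays closest to their own number). Between the dissected areas all 5 pairs correlated positively, at 0.0739 to 0.206, a hint of pairing from the data; there the number is also the slide. With replicate number as a block, Snap25 was no longer called in the normal gland (limma adjusted p = 0.0658), Cplx2 was called in the dissected gland (limma adjusted p = 0.0253), 0 exocytosis genes and 4 of all genes were called in the normal gland, and 3 by F test.

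Directions turned in 56 of 1307 combinations of gene, comparison and alternative for the genes given on every array, none of them called. Many could not turn, since leaving out an array outside the groups compared leaves the difference unchanged, as do the other settings named above. On scan day 1, Syn2 in the normal gland was -0.0994, Rab3a after dissection 0.101 (central), Vamp8 -0.0926 (peripheral), and the difference in change between areas was 0.221 for Rab3a, -0.211 for Rab3b and 0.0723 for Vamp8. On scan day 2, the change after dissection was -0.00995 for Cadps and -0.0541 for Syn2 (central), 0.0632 for Rab3a and 0.118 for Syn2 (peripheral), and the difference in change was 0.0477 for Snap25, -0.0875 for Cplx2 and -0.172 for Syn2. With Cy5 alone, the change was 0.0195 for Rab3a and -0.0782 for Syn2 (central), and the difference in change -0.00119 for Syt13 and 0.172 for Rab3a. With slide as a block, the difference in change was 0.0166 for Snap25 and 0.0163 for Rab3a, and with the replicate block 0.0332 for Snap25. Without the 4 weak arrays, Rab3a changed sign at 0.171 (central), 0.0968 (peripheral) and 0.0737 (difference in change), and Snap25 at 0.162. Leaving out 1 array gave -0.283 to 0.0385 for Vamp8 between the normal areas. After dissection it gave, in the central area, -0.26 to 0.0355 for Rab3a, -0.176 to 0.0254 for Vamp8, -0.0472 to 0.257 for Cadps and -0.194 to 0.141 for Syn2, and -0.169 to 0.079 for Rab3a in the peripheral area. The difference in change was -0.463 to 0.217 for Snap25, -0.0399 to 0.346 for Cplx2, -0.256 to 0.0391 for Rab3a and -0.195 to 0.142 for Rab3b. Genes near background, such as Syt1, Syt4, Rims2 and Cadps, have only lower bounds where a group is above it on no array.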
